A study of Homo sapiens with 24 samples.

Results

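The genes of the translation initiation factors were followed through inhibition of O-GlcNAc cycling in HEK293T cells, an established human embryonic kidney line. Members were all gene groups of the count tables whose symbol begins with EIF followed by a digit from 1 to 6. This rule uses no measured value, but it and the tests were chosen with earlier results of these data known. The rule gave 52 of 13236 gene groups and 763 of 164219 bins, the exon and intron pieces into which each gene model is divided. Of the 4769 bins that the authors class as detained introns, introns that stay in polyadenylated transcripts held in the nucleus, 30 lie in 23 of these genes. The cells received 10 µM OSMI-2, which inhibits OGT, the enzyme that puts the sugar O-GlcNAc on proteins, or 5 µM TMG, which inhibits OGA (MGEA5 in the tables), the enzyme that removes it, for 2 h or 6 h. Each drug and time had its own DMSO controls, and all groups were wild-type HEK293T cells of 1 line with no other agent named in the labels. There were 3 libraries a group except OSMI-2 at 6 h, of which 2 were analysed here, and libraries are named by the letters of their columns. Nothing in the labels says that libraries of a group came from separate experiments, so p-values measure the spread between these libraries, which may be technical.

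Initiation assembles a ribosome at the start codon. The trimeric eIF2 (EIF2S1 to EIF2S3) brings the initiator tRNA as a GTP complex, eIF2B (EIF2B1 to EIF2B5) recharges it with GTP, and the kinases EIF2AK1 to EIF2AK4 halt that recharging under stress by phosphorylating EIF2S1. The large scaffold eIF3 holds the small ribosomal subunit, and eIF4F (the cap-binding EIF4E, the scaffold EIF4G1 and the helicase eIF4A) loads it on capped mRNA, which the EIF4E-binding proteins EIF4EBP1 and EIF4EBP2 oppose. EIF1, EIF1AX, EIF5 and EIF5B act in start codon choice and subunit joining, and EIF5A helps the ribosome pass difficult peptide bonds.

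Many mRNAs of the translation apparatus begin with a C followed by a run of pyrimidines, the feature that places them under growth control through mTOR and LARP1, so the first bases of the members were read. RefSeq (GRCh38.p14) promoter entries were read for 42 of the 52 members, with 57 start sites. No start site was read for EIF3J-AS1, EIF3CL, EIF3G, EIF4EBP1, EIF3H, EIF3L, EIF2AK1, EIF3A, EIF3E and EIF2S2. Some member sites were left out of the reading, so this does not show that each of these genes lacks an entry. A C at the start site followed without a break by C or T, at least 5 pyrimidines in all and read on the transcribed strand, was present at 9 of 57 member sites (15.8%) and at 4.07% of all 35116 start sites in the table. The 9 genes are shown because they are the members, among those read, that hold this run. Each window has 10 bases before and 20 bases from the start, and capitals mark the run from the start base onward.
EIF3D: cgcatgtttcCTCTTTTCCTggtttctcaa
EIF3F: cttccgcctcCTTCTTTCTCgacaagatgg
EIF3K: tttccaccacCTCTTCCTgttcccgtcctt
EIF3M: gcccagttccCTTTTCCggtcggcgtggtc
EIF2A: cgagcggtttCTCTTTCCgggacaacatgg
EIF2D: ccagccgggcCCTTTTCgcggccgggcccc
EIF2S3: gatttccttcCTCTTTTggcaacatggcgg
EIF4A2: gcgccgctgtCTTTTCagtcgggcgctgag
EIF4B: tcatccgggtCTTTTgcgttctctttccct
EIF3D (chr22:36529147-36529176, minus strand) and EIF3F (chr11:7987327-7987356, plus strand) had the longest runs, of 10 pyrimidines each. The median log2 fold change of the 9 genes at 6 h of OSMI-2 was 0.10, with 1 gene rising (EIF3F). It was 0.11 in the 33 other genes that had a start site read and a test. EIF4EBP1 and EIF3H, which also rose, are in neither set. The medians were 0.03 and 0.02 at 6 h of TMG, with 1 of the 9 rising (EIF3D).

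The libraries held 39.5 M to 100.2 M bin counts (M, mega), and the member genes 1.30% to 1.69% of them. Of the line's markers, VIM, KRT8, KRT18, CDH2, NEFL, NEFM, PAX2 and LIN28B were counted in these libraries, and TUBB3 was not listed. NEFM and PAX2 had the lowest levels of those counted. Of 12 markers of other cell types the tables list 1, CD14, at no more than 0.192 CPM (counts scaled to a library size of 1e6). Because TUBB3 is missing too, a marker's absence from the list does not show that the cells lacked it. The OSMI-2 experiment had higher counts for GC-rich genes and the TMG experiment lower ones: the log2 level rose by 0.54 to 0.89 per 10 percentage points of GC in 10 of the 11 OSMI-2 experiment libraries and fell by 0.39 to 0.62 in those of the TMG experiment. DMSO 6 h library a of the OSMI-2 experiment stood apart, at 0.118, so results of the 6 h OSMI-2 comparison are given with and without it.

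On plain library totals and per kilobase of counted bins, EIF5A was the most abundant member in both experiments. Its level at 2 h of DMSO was 1736 ± 133 CPM per kilobase (SD, n = 3) in the OSMI-2 experiment and 737 ± 32.4 (SD, n = 3) in the TMG experiment. EIF3I, an eIF3 subunit, and EIF1 followed in the OSMI-2 experiment, at 709 ± 137 and 707 ± 68.5 (SD, n = 3), which did not differ beyond their spread. EIF4E, the cap-binding subunit, was near the bottom of the order, at 0.70 ± 0.26 and 3.96 ± 0.21 (SD, n = 3), and its counted length includes a long bin that lowers this value. EIF3C and EIF3CL, and EIF5A and EIF5AL1, are near-identical copies between which the counting could have split reads, and EIF3J-AS1 is an antisense gene counted with strand use not given in the sources used here. EIF4A1 and EIF4EBP3 occur in the tables only in read-through groups with SENP3 and ANKHD1 and are not members.

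After 2 h of OSMI-2 no member gene passed the test. Of 51 tested genes, 0 passed an adjusted p of 0.05 in edgeR's quasi-likelihood test, with 0.0% of all genes called, 1 member at an unadjusted p under 0.05, and 0 members by DESeq2. EIF4EBP1 measured 191, 143 and 192 CPM on TMM-scaled library size in DMSO and 178, 180 and 173 in OSMI-2, with overlapping groups and a log2 fold change of 0.02 ± 0.14 (SE). EIF5B, the GTPase of subunit joining, measured 123, 138 and 122 CPM in DMSO and 106, 101 and 102 in OSMI-2, so its groups did not overlap (log2 −0.31 ± 0.12 SE, adjusted p = 1.0). Among the remaining genes followed in every comparison, log2 fold changes were 0.26 for EIF4E, 0.07 for EIF5A, 0.02 for EIF4G1, −0.13 for EIF4EBP2, −0.15 for EIF4A2 and −0.24 for EIF2S1, and −0.31 to −0.10 for the kinases EIF2AK1 to EIF2AK4.

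The detained introns of the members did not pass the test at 2 h of OSMI-2 either. None of 26 tested by count (0.129% of all introns called) nor of 27 tested relative to their gene (0.0643% called) passed. By each test, edgeR and limma, 3 had an unadjusted p under 0.05, and the share of all introns at that p is not given here. EIF3D E004, a 3875-base intron of the eIF3 subunit that binds the cap of selected mRNAs (hg19 chr22:36908650-36912524, minus strand), held 0.637%, 0.665% and 0.714% of the EIF3D count in DMSO and 0.505%, 0.524% and 0.570% in OSMI-2. The groups did not overlap, and the ratio fell short of the threshold (log2 −0.34 ± 0.14 SE, adjusted p = 0.98). In the same libraries OGT E005, a detained intron of the drug's own target, fell from 2.73% to 4.03% of the OGT count in DMSO to 0.304% to 0.658% in OSMI-2.

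After 6 h of OSMI-2 the detained introns of initiation factor genes were nearly all lower than in DMSO at 6 h. By count 28 of 30 fell and none rose, where 86.3% of all tested introns fell and 0.599% rose. Relative to the gene the same 28 fell, where 89.2% of all introns fell and 0.217% rose. The authors' deposited table of bin usage called 26 of the 30, where it called 80.5% of all detained introns. The members' share is thus near that of all introns. Their median log2 change was −1.77 by count (all introns −1.55) and −1.92 by ratio (all introns −1.63). The 30 introns together made up 0.447% to 0.759% of the members' gene counts in the 3 DMSO libraries and 0.127% and 0.135% in the 2 OSMI-2 libraries. The OSMI-2 values lie at the level of the 2 h DMSO libraries of that experiment, 0.128% to 0.154%, and the 6 h DMSO libraries lie above it. In the TMG experiment the 30 introns made up 0.236% to 0.284% in DMSO at 2 h and 0.281% to 0.438% at 6 h. Whether the drug or a difference between the 2 h and 6 h DMSO libraries lies behind this was not tested. In 28 introns both OSMI-2 libraries were below all 3 DMSO libraries. The share of all introns separated in this way is not given here, so this count is not a result about members.

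**Figure D1:**
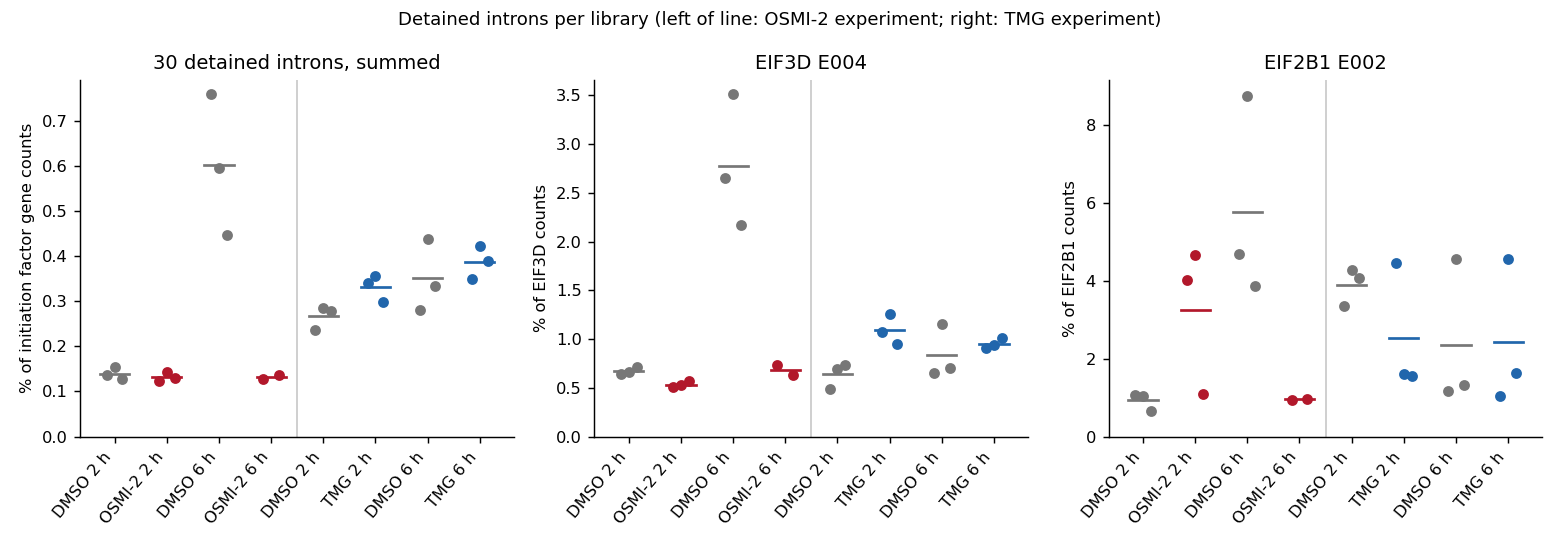
Share of gene counts held by all 30 detained introns together, by EIF3D E004 and by EIF2B1 E002, in percent on linear axes from 0, with 1 point a library and a line at each group's mean. In the left and middle panels the 3 DMSO libraries at 6 h of the OSMI-2 experiment sit above every other library; in the right panel libraries of 1 group fall at different levels.

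EIF3D E004 held 2.65%, 3.51% and 2.17% of the EIF3D count in DMSO and 0.733% and 0.635% in OSMI-2 (log2 ratio −1.99 ± 0.23 SE). All DMSO values exceeded both OSMI-2 values. The largest falls by ratio were in EIF3A E006 (−2.79 ± 0.32 SE), in the scaffold subunit that organises eIF3, and in EIF2AK1 E006 (−2.76 ± 0.29 SE), in the heme-regulated kinase. EIF2AK1 E006, a 7051-base intron (hg19 chr7:6068664-6075714), held 3.16%, 3.78% and 2.36% of its gene in DMSO and 0.384% and 0.514% in OSMI-2. EIF4G1 E030 (−2.74 ± 0.35 SE), EIF4ENIF1 E003 (−2.72 ± 0.42 SE), in the gene of the EIF4E transporter, EIF5B E024 (−2.68 ± 0.38 SE), EIF3A E002 (−2.60 ± 0.34 SE) and EIF2S2 E007 (−2.47 ± 0.31 SE) followed.

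Both detained introns of EIF2B1, the alpha subunit of eIF2B, fell. EIF2B1 E002 (715 bases, hg19 chr12:124106468-124107182) went from 4.68%, 8.75% and 3.86% of the gene to 0.945% and 0.972%. EIF2B1 E005 went from 8.99%, 9.16% and 5.58% to 1.86% and 2.19%. The 2 introns that did not fall were EIF2AK4 E015, in the amino-acid sensing kinase, at 1.29%, 1.69% and 1.77% in DMSO and 1.83% and 1.46% in OSMI-2, and EIF2B3 E006, at 0.434%, 0.592% and 0.558% against 0.637% and 0.645%. EIF2B3 E006 rested on 10 to 18 counts a library. When introns were scaled on introns alone, which measures each against the other introns, 3 of the 28 were still lower, 9 turned to a positive sign and 1, EIF3K E005, was higher (log2 0.83).

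**Figure D2:**
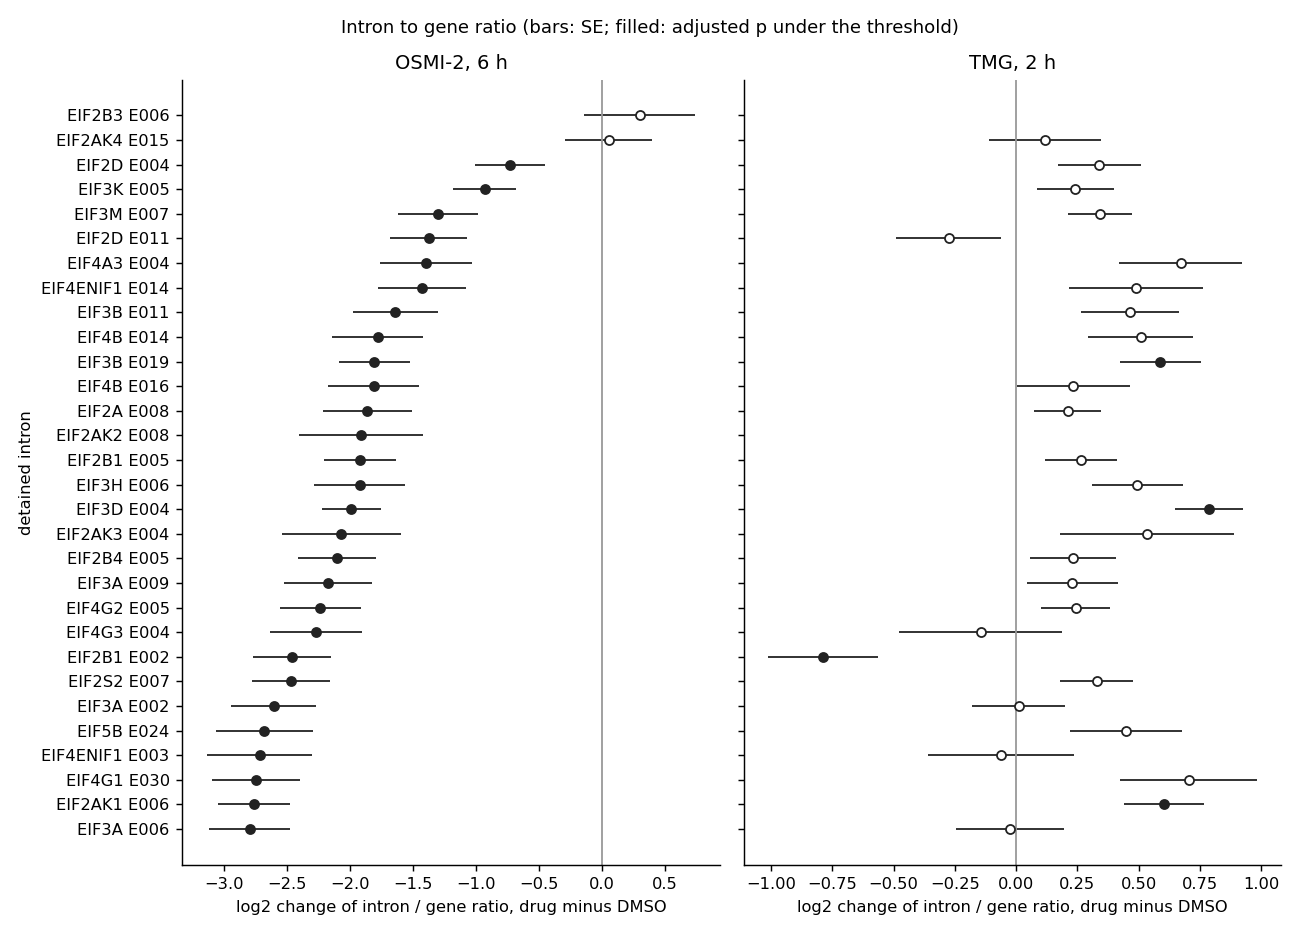
Change of the intron to gene ratio for each detained intron of an initiation factor gene (log2, drug minus DMSO, bars are SE, filled points passed the threshold in limma), at 6 h of OSMI-2 and 2 h of TMG. At 6 h of OSMI-2, 28 of 30 points are filled and negative; at 2 h of TMG 3 are filled and positive and 1, EIF2B1 E002, filled and negative.

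At the gene level 3 of 51 members rose after 6 h of OSMI-2 and none fell, where 2.57% of all genes rose and 2.37% fell. The 3 were EIF4EBP1, the EIF4E-binding repressor, and the eIF3 subunits EIF3F and EIF3H. EIF4EBP1 measured 58.7, 105 and 110 CPM in DMSO and 191 and 214 in OSMI-2 (log2 1.15 ± 0.30 SE, adjusted p = 0.015). EIF3F measured 177, 294 and 330 CPM in DMSO and 555 and 545 in OSMI-2 (log2 1.04 ± 0.33 SE, adjusted p = 0.041). EIF3H measured 105, 64.9 and 62.2 CPM in DMSO and 150 and 161 in OSMI-2 (log2 1.01 ± 0.30 SE, adjusted p = 0.031). Both OSMI-2 values lay above all DMSO values in each gene. In DMSO library a, EIF4EBP1 and EIF3F were lowest and EIF3H highest.

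These calls depended on the scaling and on single libraries. None of the 3 passed when TMM was taken over genes alone, with DESeq2 or without DMSO library c. EIF3F and EIF3H also did not pass without DMSO library b. In edgeR, adjusted p reached 0.0696 for EIF4EBP1 and 0.238 for EIF3H, both without DMSO library c, and 0.117 for EIF3F without DMSO library b. Leaving out either OSMI-2 library leaves a single library in its group, so no test result is given for those fits. The sign was positive in every alternative. Scaling also moved the median of all genes, from a log2 fold change of 0.15 to −0.09 with TMM over genes alone and to 0.30 with median-of-ratios size factors, so member changes are best read against it. The median of the 51 members was 0.19.

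Without DMSO library a, 22 members rose and 1 fell, where 34.2% of all genes rose and 8.21% fell. The risers included all 3 subunits of eIF2, 7 of 14 eIF3 genes, and 4 of 10 genes of the eIF4 factors (EIF4G1, EIF4G2, EIF4G3 and EIF4H), a group that holds eIF4F subunits, their relatives and helpers. They also included 5 of 9 further factors, which were EIF1AX, EIF2A, EIF5, EIF5B and EIF6, the last of which keeps the large ribosomal subunit from joining too early. No eIF2B gene was among them. EIF4G2, an EIF4G relative that initiates without EIF4E, then had a log2 fold change of 1.46 ± 0.11 (SE), EIF3H 1.34 ± 0.11, EIF5B 1.30 ± 0.15, EIF4G3 1.29 ± 0.10 and EIF3A 1.20 ± 0.11, each with an adjusted p of 0.0021. With all libraries these genes had adjusted p of 0.053 (EIF4G2), 0.061 (EIF5B), 0.063 (EIF4G3) and 0.095 (EIF3A). The member that fell was EIF2D, an alternative initiator tRNA carrier (−0.61 ± 0.15 SE), at 138, 155 and 172 CPM in DMSO and 115 and 92.9 in OSMI-2. With the GC trend of each library removed, 11 members rose and 2 fell, where 11.5% of genes rose and 12.1% fell. Of these 13, 12 were among the 23 called without library a. The 3 genes called with all libraries then had log2 fold changes of 0.71 (EIF4EBP1), 0.99 (EIF3F) and 0.98 (EIF3H), against 1.15, 1.04 and 1.01 before. In 1 fit of the libraries of both experiments 23 members rose and none fell (39.5% and 7.54% of all genes). Whether GC content or RNA quality had a part in these changes was not tested.

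**Figure D3:**
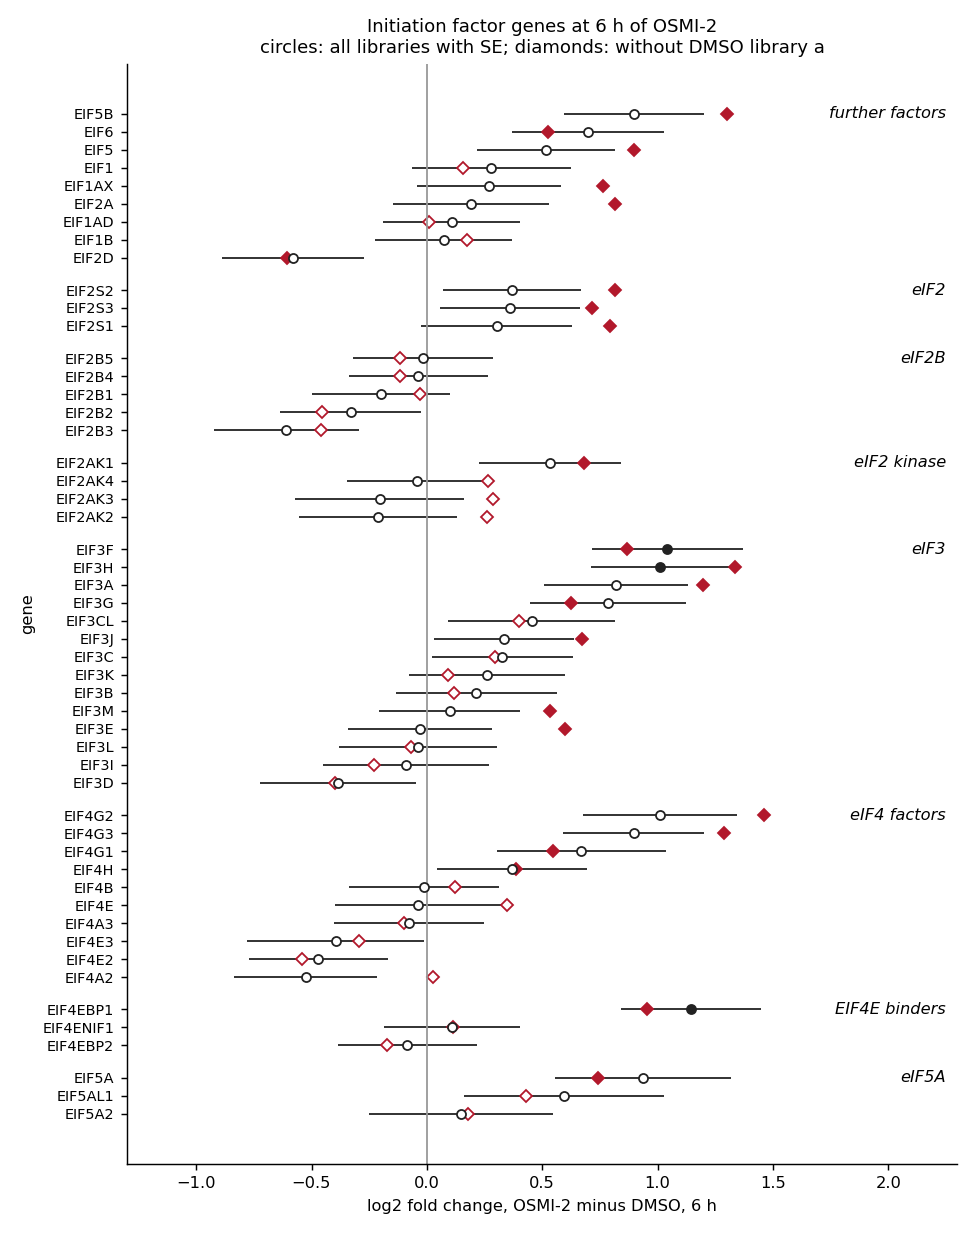
Log2 fold change of each tested initiation factor gene at 6 h of OSMI-2 on TMM-scaled counts, by role, with all libraries (circles with SE) and without DMSO library a (diamonds); filled symbols passed the threshold in edgeR. With all libraries 3 circles are filled, and without library a 22 diamonds to the right of 0 and 1, EIF2D, to the left are filled.

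Genes followed in every comparison that did not pass with all libraries at 6 h of OSMI-2 included EIF5A, at 1188, 2178 and 2240 CPM in DMSO and 3669 and 3484 in OSMI-2 (log2 0.94 ± 0.38 SE, adjusted p = 0.12), and EIF4G1, at 987, 1477 and 1459 against 1998 and 2162 (log2 0.67 ± 0.36 SE, adjusted p = 0.26). In both the OSMI-2 libraries lay above all DMSO libraries. Log2 fold changes were 0.30 for EIF2S1, −0.04 for EIF4E, −0.08 for EIF4EBP2 and −0.52 for EIF4A2, and 0.53, −0.21, −0.20 and −0.04 for EIF2AK1 to EIF2AK4. Several of these signs turned with the scaling or with 1 library. EIF4A2 went from −0.52 to 0.03 without DMSO library a, in which it measured 117 CPM against 46.1 and 57.5 in the other two DMSO libraries and 48.8 and 53.5 in OSMI-2. The drug targets OGT and MGEA5 fell in the same comparison, by 1.85 ± 0.33 and 1.93 ± 0.33 (log2, SE).

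Of the other translation genes, 3 of 11 elongation, termination and recycling factors rose and none fell (median log2 0.63), and 2 of 23 further regulators of initiation rose and none fell (median 0.39). Without DMSO library a these counts were 7 of 11 and 13 of 23. Beside them, 1 of 8 HEK293T markers rose, and 6 of 8 without library a. Over all tested genes, 2.57% rose with all libraries and 34.2% without library a.

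Outside the detained introns, the authors' deposited table of bin usage called 49 of 718 member bins at 6 h of OSMI-2 (33 higher, 16 lower, in 20 genes), where 4.08% of all such bins were called. In EIF2AK2, the double-stranded RNA kinase PKR, 14 of these 49 bins were called, E001 lower and the others higher (log2 0.45 to 0.79). Usage is relative to the gene, so bins of 1 gene are not independent and the count of 49 leans on this gene. Its 8188-base bin at the 3′ end of the gene (E001, hg19 chr2:37326351-37334538, minus strand) had a log2 usage change of −1.40 in the authors' deposited table. From the counts, this bin held 62.2%, 62.3% and 62.6% of the gene in DMSO at 6 h and 32.7% and 27.1% in OSMI-2. In the other libraries of that experiment it held 36.5% to 48.6%, so the 6 h DMSO libraries were above, and the 6 h OSMI-2 libraries below, every 2 h library. In the TMG experiment it held 44.7% to 49.7% in all 12 libraries.

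Smaller bins moved in further members. EIF4A2 E011, a 107-base bin of the helicase gene (hg19 chr3:186506099-186506205), held 6.32%, 6.75% and 6.20% of the gene in DMSO and 3.74% and 4.31% in OSMI-2, and the authors' deposited table gives −0.65. EIF5 E016 (hg19 chr14:103810237-103811365) held 3.03%, 3.21% and 3.46% in DMSO and 1.82% and 1.26% in OSMI-2, with −1.16 in the authors' deposited table. In both bins the groups did not overlap. The authors' deposited table called 0 of 730 such member bins at 2 h of OSMI-2 (0.00893% of all), 2 of 671 at 2 h of TMG (0.14%), EIF4G2 E013 and EIF5 E008, and 1 of 628 at 6 h of TMG (0.0565%), EIF3I E001.

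After 2 h of TMG, 3 detained introns of members rose and 1 fell, of 28 tested, by the count test and by the ratio test alike. Over all introns 9.69% rose and 0.123% fell by count, and 10.2% rose and 0.0496% fell by ratio. EIF3D E004 held 0.487%, 0.695% and 0.732% of the gene in DMSO and 1.07%, 1.26% and 0.952% in TMG, with no overlap (log2 ratio 0.79 ± 0.14 SE, adjusted p = 0.0014). That call held in all 10 alternatives of the ratio test, with adjusted p up to 0.034, while its call by count was lost in 1 of 11, the fit of all libraries (adjusted p = 0.098). EIF2AK1 E006 held 0.540%, 0.629% and 0.555% in DMSO and 0.916%, 0.936% and 0.781% in TMG (log2 ratio 0.60 ± 0.16 SE, adjusted p = 0.019). EIF3B E019, in another core eIF3 subunit, held 0.238%, 0.227% and 0.274% in DMSO and 0.434%, 0.411% and 0.286% in TMG (log2 ratio 0.59 ± 0.17 SE, adjusted p = 0.024). In all 3 introns every TMG library was above every DMSO library. The other two rises were less stable. By ratio EIF2AK1 E006 did not pass without TMG library a (adjusted p = 0.108), TMG library b (0.123) or DMSO library c (0.0505), and its call by count was lost in 6 of 11 alternatives. By ratio EIF3B E019 did not pass without TMG library a (adjusted p = 0.170), TMG library b (0.151) or DMSO library b (0.053), nor in the authors' deposited table (0.285), and its call by count was lost in 5 of 11. The authors' deposited table called 2 of 28 member introns at 2 h of TMG (3.77% of all detained introns), 0 of 18 at 6 h of TMG (0.541%) and 0 of 30 at 2 h of OSMI-2 (0.0842%).

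The intron that fell, EIF2B1 E002, held 3.34%, 4.28% and 4.06% of the gene in DMSO and 4.46%, 1.59% and 1.56% in TMG (log2 ratio −0.79 ± 0.22 SE, adjusted p = 0.024). TMG library a lay above all DMSO libraries, so the groups overlapped, and the ratio did not pass without TMG library b (adjusted p = 0.194), TMG library c (0.087) or DMSO library c (0.061), nor in the authors' deposited table (0.912). By count the call was lost in 6 of 11 alternatives, with an adjusted p of 0.318 without TMG library b. The median change of the 28 introns was 0.32 by count and 0.30 by ratio, against 0.29 and 0.30 over all introns.

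At the gene level 1 of 52 members rose at 2 h of TMG, where 1.25% of all genes rose, and 1 fell, where 6.67% fell. EIF5B measured 273, 279 and 311 CPM in DMSO and 306, 326 and 349 in TMG (log2 0.18 ± 0.06 SE, adjusted p = 0.046), with overlapping groups. EIF4EBP1 measured 129, 112 and 116 CPM in DMSO and 104, 104 and 105 in TMG, all below DMSO (log2 −0.19 ± 0.05 SE, adjusted p = 0.031). Both calls were lost without DMSO library a (adjusted p = 0.098 and 0.12), without TMG library b or c, and with the GC trend removed, which left EIF4EBP1 at −0.06. Over their alternatives, adjusted p ran from 0.011 to 1.0 for EIF5B and from 0.023 to 1.0 for EIF4EBP1. Other followed genes lay between −0.11 (EIF2AK3) and 0.14 (EIF2AK2) on the log2 scale, with EIF4A2 at 0.01, EIF4G1 at 0.00, EIF4E at 0.03, EIF4EBP2 at 0.02, EIF2S1 at 0.03, EIF2AK1 at 0.02, EIF2AK4 at 0.06 and EIF5A at −0.07. Of the elongation, termination and recycling factors 1 of 11 fell, and none of the 23 further regulators passed.

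After 6 h of TMG, EIF3D was the single member to rise, of 52 tested, and none fell, where 1.19% of all genes rose and 4.84% fell. EIF3D measured 534, 480 and 518 CPM in DMSO and 616, 583 and 615 in TMG, with no overlap (log2 0.24 ± 0.06 SE, adjusted p = 0.024). The call was lost without DMSO library b (adjusted p = 0.067) and without any 1 of the TMG libraries (up to 0.12); over all alternatives adjusted p ran from 4.3e-05 to 1.0. EIF2S1 measured 121, 122 and 121 CPM in DMSO and 138, 134 and 143 in TMG (log2 0.19 ± 0.06 SE, adjusted p = 0.065), and EIF4A2 measured 227, 255 and 238 in DMSO and 207, 212 and 212 in TMG (log2 −0.19 ± 0.06 SE, adjusted p = 0.063). Neither passed, although neither had overlapping groups. Log2 fold changes were −0.11 for EIF4EBP1, −0.04 for EIF4EBP2, −0.03 for EIF4G1, 0.02 for EIF4E, 0.03 for EIF5A, and 0.01, 0.15, −0.18 and 0.06 for EIF2AK1 to EIF2AK4. In the same libraries MGEA5 rose by 0.72 ± 0.06 and OGT fell by 0.48 ± 0.07 (log2, SE).

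No member intron passed at 6 h of TMG. Of 28 introns, 0 passed by count (0.19% of all introns called, 3 members at an unadjusted p under 0.05) and 0 by ratio (0.191% called, 1 member). EIF3D E004 held 0.651%, 1.16% and 0.704% of the gene in DMSO and 0.905%, 0.935% and 1.01% in TMG (log2 ratio 0.23 ± 0.20 SE, adjusted p = 0.87). DMSO library b was above all TMG libraries, and without it 4 member introns passed by count and 3 by ratio. The share of all introns passing without that library is not given here, so these counts are not a result about members.

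**Figure D4:**
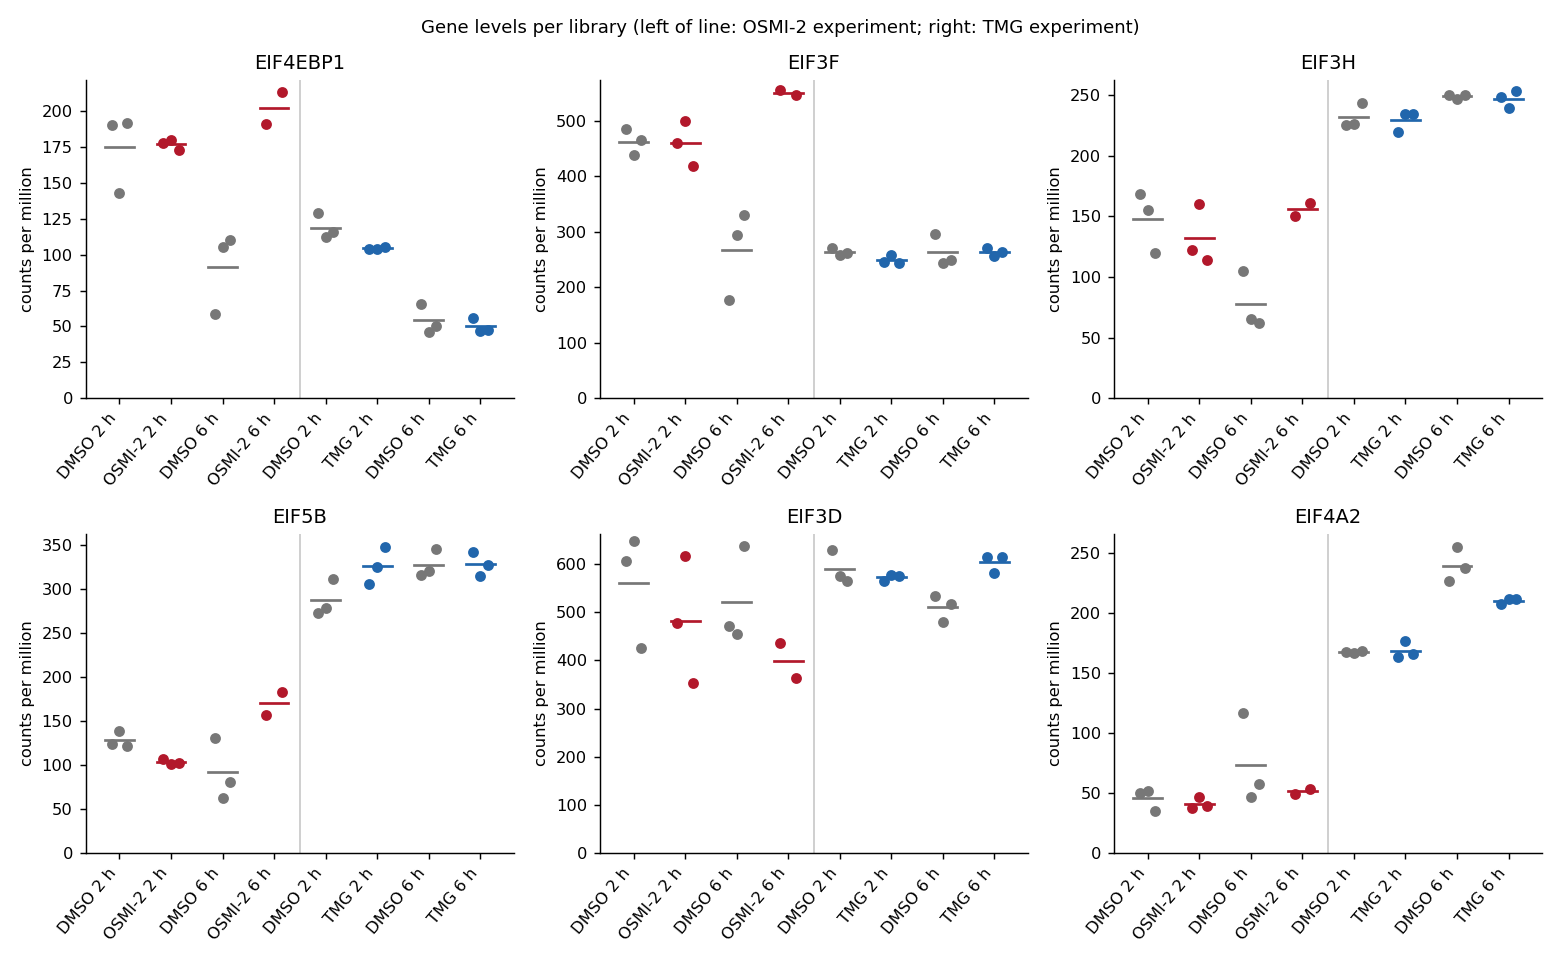
Levels of 6 initiation factor genes in CPM on TMM-scaled library size, scaled within each comparison, on linear axes from 0, with 1 point a library and a line at each group's mean. EIF4EBP1 is at 46.2 to 66.0 in the 6 h DMSO libraries of the TMG experiment and at 112 to 129 in those of 2 h, and EIF4A2 at 6 h of TMG is below its DMSO libraries.

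The effects of the drugs were compared at matched times by the difference of their log2 fold changes, OSMI-2 minus TMG; doses differed, at 10 and 5 µM. At 2 h no member gene differed (0 of 52, 0.0% of all genes called, 1 member at an unadjusted p under 0.05) and 2 of 29 introns did (0.255% of all introns called). EIF3D E004 differed by −1.23 ± 0.24 (SE, adjusted p = 0.010) and EIF2B1 E002 by 2.28 ± 0.48 (SE, adjusted p = 0.020). Each of these calls was lost in 5 of 14 alternatives, all of which left out 1 library. For EIF3D E004 these were library a or b of DMSO and library a of OSMI-2 in the OSMI-2 experiment, and library a of DMSO and library b of TMG in the TMG experiment (adjusted p up to 0.101). For EIF2B1 E002 they were OSMI-2 library a or b, DMSO library b of the TMG experiment and TMG library b or c (adjusted p up to 0.103). Of the 52 genes, 11 differed at 6 h, all with a higher value for OSMI-2 (16.9% of all genes were higher and 2.97% lower). They were EIF4EBP1 (1.41 ± 0.32 SE), EIF3F (1.19 ± 0.29), EIF3H (1.18 ± 0.27), EIF4G3 (1.07 ± 0.30), EIF5A (1.06 ± 0.31), EIF5B (1.06 ± 0.32), EIF4G2 (1.04 ± 0.33), EIF3A (0.94 ± 0.30), EIF3G (0.91 ± 0.28), EIF4G1 (0.85 ± 0.26) and EIF2AK1 (0.68 ± 0.22). Without DMSO library a of the OSMI-2 experiment 40 differed. The share of all genes under that setting is not given here, so the 40 is not a result about members. In the 6 h OSMI-2 comparison, leaving out that library took the share of all genes called higher from 2.57% to 34.2%. Without OSMI-2 library b a single library of its group was left, so no count is given. Of 30 introns 26 differed at 6 h, all lower for OSMI-2 (73.7% of all introns were lower and 0.577% higher), from −1.10 ± 0.39 (EIF3M E007) to −2.64 ± 0.34 (EIF3D E004).

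The DMSO libraries themselves changed between 2 h and 6 h. In the OSMI-2 experiment 15 of 51 member genes were lower at 6 h and none higher, where 14.0% of all genes were lower and 4.59% higher. The largest were EIF4EBP1 (log2 −1.35 ± 0.28 SE), EIF3H (−1.34 ± 0.27) and EIF3F (−1.20 ± 0.28), which are the 3 genes that rose with OSMI-2 at 6 h; both comparisons share the 6 h DMSO libraries. In that experiment 25 of 30 member introns were higher at 6 h and none lower, where 88.5% of all introns were higher and 1.79% lower. In the TMG experiment 3 of 52 genes were higher and 11 lower, where 16.3% and 29.6% of all genes were. EIF4EBP1 fell by 1.17 ± 0.10 (log2, SE), EIF4E3, a cap-binding paralog, by 0.66 ± 0.11 and EIF1 by 0.47 ± 0.07, while EIF4A2 rose by 0.48 ± 0.07, EIF4B, its cofactor, by 0.39 ± 0.07 and EIF2S2 by 0.29 ± 0.07. Among its member introns 5 of 28 were higher and 1 lower (21.0% and 0.904% of all introns). EIF4EBP1 was thus lower at 6 h of DMSO in both experiments, which share no library. Time in DMSO cannot be told apart from differences in handling between the 2 h and 6 h libraries.

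EIF2B1 E002 varied between libraries of 1 group. It held 0.661% to 1.64% of the gene in 12 libraries and 3.34% to 8.75% in the other 11, with none between. Both levels occurred in 4 of the 8 groups: at 2 h of OSMI-2 (4.01%, 4.67% and 1.09%), 2 h of TMG (above), 6 h of DMSO in the TMG experiment (1.16%, 4.55% and 1.32%) and 6 h of TMG (1.05%, 4.55% and 1.64%). Its standard deviation within groups, 0.81 on the log2 scale of the ratio, was at percentile 99.4 of 1423 introns averaging 50 counts or more, whose median was 0.27. EIF2B1 E005, the gene's other detained intron, was at percentile 57.1 with 0.29, and EIF3D E004 at percentile 39.7 with 0.26. The counts behind E002 ran from 18 to 271 a library.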

How the data were processed

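Polyadenylated RNA of HEK293T cells was sequenced from stranded libraries, per the labels' protocols. STAR and the hg19 build are named in the submitters' processing notes. The authors deposited whole-number counts per bin and library, 1 table per drug and time, with the columns of a DEXSeq result per the file headers. The tables also hold the authors' p-values and log2 fold changes of bin usage, deposited as computed by them; the counter, the annotation and the use of strand are not given in the sources used here. A read touching several bins may be counted in each. No confidence intervals are given, and the SE and p-values reflect only the spread between these libraries, which may be technical.

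Bins other than detained introns were summed to give each gene's count. Library size was the table's total scaled by TMM over genes and introns. Genes and introns were tested over all features with the two-sided quasi-likelihood test of edgeR 4.0.16 (filterByExpr) in R 4.3.3, Benjamini-Hochberg adjusted, at a threshold of 0.05; SE was taken from the fold change and its F statistic. Introns were set against their genes as a log2 ratio with a pseudocount of 1, tested with limma 3.58.1 where mean counts were 10 or more. Differences between drugs or times were contrasts of 1 fit. Where members at an unadjusted p under 0.05 are counted, the share of all features at that p is not given, so such counts are not a result about members. The scripts were tested on simulated data. Alternatives were other scalings, DESeq2 1.42.0, other filters and pseudocounts, 1 fit of all libraries, and leaving out each library; removing each library's GC trend (51 of 52 members and 91.3% of genes had a GC value) was added after seeing the data. All 22 within-group pairs of libraries differed beyond sampling noise (chi-square per degree of freedom 4.33 or more). Promoter sequences are from RefSeq, with member start sites on chromosome 8 left out. Whether EIF3E, EIF3H and EIF4EBP1, which lie there, have a promoter entry was therefore not established.

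The labels give 24 samples, of which 23 had columns; where the design assumed 3 OSMI-2 libraries at 6 h, the fit used 2. The members, lists and tests were chosen with earlier results of these data known. Named were members past the threshold (at most 10 rises and 10 falls a comparison, mean of at least 50 counts), at most 10 introns past it, and EIF3D E004, EIF2B1 E002, EIF4A2, EIF4G1, EIF4E, EIF4EBP1, EIF4EBP2, EIF2S1, EIF2AK1 to EIF2AK4 and EIF5A in each drug comparison. The bins of EIF2AK2, EIF4A2, EIF5 and EIF4E, EIF2B1 E005, EIF2AK4 E015, EIF2B3 E006, and the genes EIF5B at 2 h of OSMI-2, EIF3I, EIF1 and those called without DMSO library a were named after their values were seen.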

Additional observations from a re-analysis of the deposited data

Results flagged for a closer look

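A test of the difference itself separated the effects of OSMI-2 and TMG in 2 introns at 2 h. EIF2B1 E002 differed by 2.28 (log2, OSMI-2 effect minus TMG effect) and EIF3D E004 by −1.23. Each call was lost when certain single libraries were left out, in 5 of 14 alternatives, with adjusted p up to 0.103 for EIF2B1 E002 and 0.101 for EIF3D E004 in edgeR. The share of EIF2B1 E002 differed widely between libraries of a group, at percentile 99.4 of introns by its standard deviation within groups, with both its levels present in the OSMI-2 and the TMG libraries at 2 h. At 6 h the effects differed in 11 member genes and 26 member introns. Leaving out DMSO 6 h library a of the OSMI-2 experiment changed these counts to 40 and 17. The shares of all genes and introns under that setting are not given here, so these counts are not a result about members. Leaving out OSMI-2 library b leaves a single library in its group, so no count is given.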

How the results depend on the processing

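No paired analysis was possible because the count columns carry letters and no replicate numbers of the sample titles. For most of the settings and left-out libraries below, the share of all features called is not given here. The member counts therefore show how calls moved with the processing and are not a result about members. The number of member genes called at 6 h of OSMI-2 (3) became 0 with TMM over genes alone, 6 with median-of-ratios size factors, 0 with DESeq2, 23 in 1 fit of all libraries and 13 with the GC trend removed. At 2 h of TMG (2) it became 1 with either other scaling, 4 with DESeq2, and 0 in the fit of all libraries and with the GC trend removed. For 6 h of TMG (1) it became 3 with TMM over genes alone, 6 with DESeq2, 0 in the fit of all libraries and 9 with the GC trend removed. With median-of-ratios size factors the drug difference at 6 h (11 genes) became 22 and the DMSO difference in the OSMI-2 experiment (15) became 23. For introns, the count at 2 h of OSMI-2 (0) became 1 with no filter. The 28 at 6 h of OSMI-2 (all lower) became 5 when scaled on introns alone (3 lower, 2 higher) and 4 with DESeq2, which scales on introns too (2 lower, 2 higher), and the ratio test gave 15 of 15 tested at a mean count of at least 50. At 2 h of TMG (4) it became 2 when scaled on introns alone, 1 with DESeq2, 0 in the fit of all libraries and, by ratio, 2 in the authors' test of bin usage; the cause of these changes was not tested beyond what the settings themselves fix.

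Leaving out 1 library at a time gave 0 to 23 member genes at 6 h of OSMI-2, 0 to 3 at 2 h of TMG, 0 to 5 at 6 h of TMG, 0 to 40 for the drug difference at 6 h and 3 to 28 for DMSO in the OSMI-2 experiment. Introns ran from 0 to 1 at 2 h of OSMI-2 (both tests), 1 to 6 by count and 1 to 4 by ratio at 2 h of TMG, 0 to 4 by count and 0 to 3 by ratio at 6 h of TMG, 0 to 2 and 17 to 26 for the drug difference at 2 h and 6 h, and 2 to 9 for DMSO in the TMG experiment. Introns at 6 h of OSMI-2 stayed at 25 to 27 by count and 26 to 28 by ratio.

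Of the 28 introns called there, 9 turned sign under either of these settings, and 1 was then called higher. Among the genes and introns followed singly, signs turned in 58 values, none of them past the threshold as reported or under the alternative. At 2 h of OSMI-2 with the GC trend removed these were EIF2AK2 (0.015), EIF4EBP1 (−0.063) and EIF4G1 (−0.053). At 6 h of OSMI-2 they were EIF2AK4 (0.13 with median-of-ratios factors, 0.16 in the fit of all libraries), EIF4E (0.14 and 0.17) and EIF4EBP2 (0.049 and 0.11). At 2 h of TMG EIF4G1 was 0.021 with TMM over genes alone, 0.027 with DESeq2, 0.037 in the all-library fit and 0.084 with the GC trend removed, which also gave EIF2S1 −0.0078, EIF4A2 −0.021 and EIF5A 0.0027. At 6 h of TMG EIF4G1 was 0.013 in the all-library fit and 0.057 with the GC trend removed, which gave EIF4E −0.014 and EIF4EBP1 0.013, and the EIF2B1 E002 count was −0.11 scaled on introns alone and −0.068 with DESeq2. With 1 library left out, ranges that crossed 0 were, at 2 h of OSMI-2, EIF2AK3 −0.39 to 0.042, EIF4EBP1 −0.095 to 0.10 and EIF4G1 −0.030 to 0.12. At 6 h of OSMI-2 they were EIF2AK2 −0.41 to 0.26, EIF2AK3 −0.38 to 0.29, EIF2AK4 −0.18 to 0.26, EIF4A2 −0.71 to 0.027, EIF4E −0.71 to 0.41 and EIF4EBP2 −0.28 to 0.088. At 2 h of TMG they were EIF2AK1 −0.0086 to 0.020, EIF4A2 −0.028 to 0.025, EIF4E −0.030 to 0.046, EIF4EBP2 −0.016 to 0.048 and EIF4G1 −0.040 to 0.0054. At 6 h of TMG they were EIF2AK1 −0.028 to 0.049, EIF4E −0.018 to 0.072, EIF4EBP1 −0.22 to 0.057, EIF4G1 −0.073 to 0.031, EIF5A −0.032 to 0.12, and EIF2B1 E002 −0.75 to 0.84 by count and −0.53 to 0.68 by ratio. Introns with few counts, such as EIF2AK3 E004 at 3 to 31 a library at 6 h of OSMI-2, limit what these tests can show.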

Other observations

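The members' levels differed between the 2 experiments even in DMSO at 2 h. The log2 ratio of a gene's level, OSMI-2 experiment over TMG experiment, ran from −2.88 to 2.02 over 51 genes. Across these genes it followed GC content, with Pearson's r = 0.79 and Spearman's rho = 0.83; genes are not independent replicates, and all points share the same 6 libraries.

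EIF4E counts were spread differently along the gene in 3 of the 11 libraries of the OSMI-2 experiment: DMSO libraries a and c at 2 h and OSMI-2 library a at 6 h. Bin E001 held 4.0%, 3.29% and 4.93% of the gene's count in these, and 10.4% to 13.5% in the other 8. Bin E003 held 13.2%, 13.1% and 3.62% in them and 18.6% to 21.2% in the others, and bin E005 held 32.2%, 31.6% and 36.8% against 24.5% to 26.7%. At 2 h these are 2 of the 3 DMSO libraries and no OSMI-2 library, and at 6 h 1 of the 2 OSMI-2 libraries and no DMSO library. The EIF4E levels at 6 h of OSMI-2 were 6.36 CPM in library a and 13.8 in library b. In bins E001 and E003 the 3 libraries rested on 11 to 66 counts each.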
